A study of Arabidopsis thaliana with 12 samples.

Results

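The transcripts described here are those of 72 Arabidopsis loci whose signal differed strongly in phyb seedlings whether or not SCO3 was also mutated. They were chosen from 11933 probe sets whose single annotated gene name is a plain locus identifier, among 22746 probe sets tested in all. A locus was taken when the difference of group means was at least 1.5 on the log2 scale (2.83-fold), in the same direction, both between phyb and Col-0 and between sco3phyb and sco3. In addition, sco3phyb and phyb had to differ by less than 0.7 (1.62-fold). AT3G13610 and the loci from AT3G18000 to AT3G20999, the stretch that holds SCO3, were left out beforehand, and none of these 138 probe sets was within the limits. In phyb, 57 of the 72 loci were higher and 15 were lower. The differences between phyb and Col-0, between sco3phyb and sco3 and between sco3phyb and phyb chose the members, so they are given as a description. Counts of members called in them are printed beside the same over all probe sets, and such calls are not read as evidence.

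Whole seedlings were harvested at 4 days from agar medium with 16 h of light and 8 h of dark. RNA was hybridised to Affymetrix ATH1 arrays, on which a probe set is a group of short oligonucleotides that reports 1 transcript or a few. There were 12 arrays, 3 labelled biological replicates for each of 4 genotypes: the double mutant sco3phyb, the single mutants phyb and sco3, and the reference line Col-0. The labels used here name no allele, so how much PHYB or SCO3 function each mutant kept is not known. The values are log2 signals. In whole seedlings, fewer cells of a type and less RNA per cell cannot be told apart.

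Phytochrome B, the product of PHYB, is a photoreceptor that switches between an inactive and an active form in red and far-red light. In its active form it enters the nucleus and restrains the PHYTOCHROME INTERACTING FACTORS, transcription factors that drive stem elongation, auxin synthesis and the shade response. Seedlings that lack it grow tall and pale in light, much as they would under a leaf canopy. SCO3 (SNOWY COTYLEDON 3) is needed for normal chloroplast development in cotyledons. Both act on greening, which is the setting in which the series title places the genotypes. The annotation used here gives all 72 loci by identifier alone, and it types 71 as protein coding and AT1G43590 as a pseudogene. No function is therefore stated for any of them.

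The median log2 signal was between 4.53 and 4.74 on the 12 arrays. It was 4.70 to 4.74 on the sco3phyb and phyb arrays and 4.53 to 4.61 on the sco3 and Col-0 arrays, so it differed by PHYB state. With 3 arrays a genotype, precision is set by their number. The mean correlation of an array with the others of its genotype was between 0.978 and 0.995, lowest for Col-0 replicate 3. No probe set is named PHYB or SCO3 by the annotation, so the mutations were not checked at the level of their own transcripts. The tissue markers that could be followed were few. The root hair expansin EXPA7 averaged 5.47 ± 0.06 in sco3phyb, 6.69 ± 0.12 in phyb, 5.06 ± 0.64 in sco3 and 6.35 ± 0.90 in Col-0 (SD, n = 3 each). The guard cell regulator FMA averaged 4.16 ± 0.11 in sco3phyb, 3.77 ± 0.21 in phyb, 4.39 ± 0.22 in sco3 and 4.66 ± 0.34 in Col-0. FMA fell in phyb relative to Col-0 (-0.89, adjusted p = 0.00162), and the part of guard cells in the members' values was not tested. The pollen gene AT59 read between 2.04 and 2.95 on every array, around the lower quartile of all signals, which was 2.62 to 2.77. The chosen markers of green tissue and dry seed could not be found by name in the annotation and were not analysed here.

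The members differed by similar amounts in both backgrounds, which the rule favours. Among the 57 loci higher in phyb, the median difference was 1.97 between sco3phyb and sco3, and 2.16 between phyb and Col-0. Among the 15 lower loci it was -1.87 in both comparisons. Over all probe sets the medians were -0.04 and -0.06. All 72 members were called in the fit across all probe sets between phyb and Col-0 (adjusted p under 0.05), where 33.4% of all probe sets were called, 17.6% higher and 15.9% lower. All 72 were also called between sco3phyb and sco3 (29.3% of all probe sets, 15.9% higher and 13.4% lower) and between sco3phyb and Col-0 (29.7%). Since these are the contrasts behind the rule, nothing is read from these counts.

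Across arrays, the 6 arrays of sco3phyb and phyb did not overlap the 6 arrays of sco3 and Col-0 for any of the 72 members, against 18.9% of all probe sets (10.3% higher and 8.56% lower). The rule sets the means of these same groups apart, so nothing is read from this count either. The balance of higher and lower loci depended on scaling. After each array was centred on its median, the same rule gave 68 loci, 39 higher and 29 lower, of which 53 were among the 72. Centring shifted every difference by -0.15 between phyb and Col-0 and by -0.17 between sco3phyb and sco3. A further quantile normalization gave 65 loci, 46 higher and 19 lower, with 60 shared. Under both scalings, none of the 72 changed direction in either phyb comparison.

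**Figure D1:**
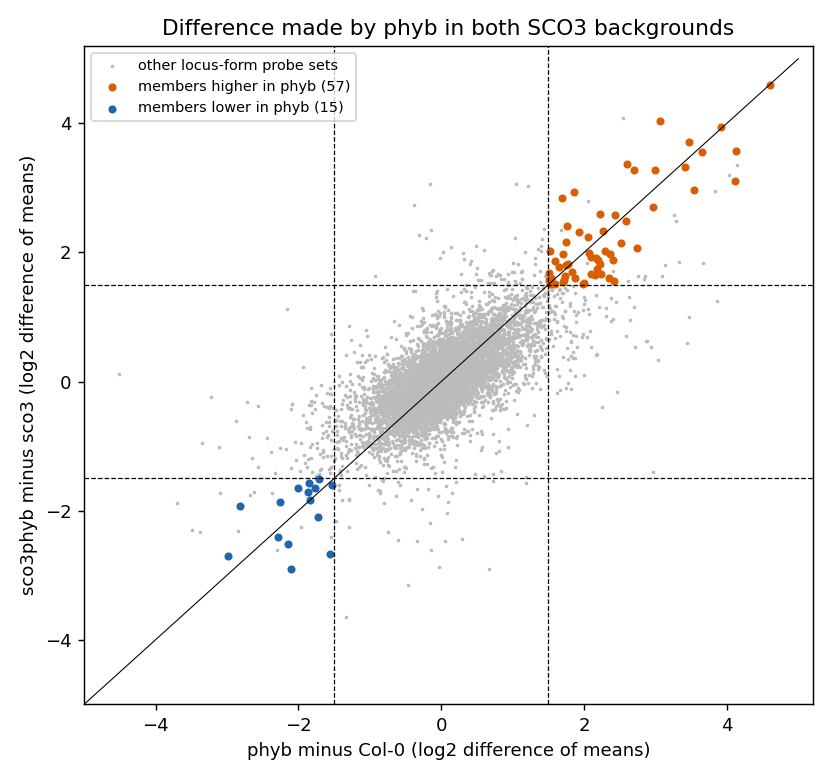
Log2 difference of genotype means between phyb and Col-0 (horizontal) and between sco3phyb and sco3 (vertical) for each locus-form probe set, with the 57 higher members in orange, the 15 lower members in blue and the limits of 1.5 dashed. Grey points beyond both limits differed by 0.7 or more between sco3phyb and phyb, and the members lie on both sides of the line of equal difference.

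The highest-ranked member was AT4G11190, ranked by the smaller of the phyb differences. It read 7.90, 7.61 and 7.82 in sco3phyb and 8.65, 8.56 and 8.11 in phyb, against 3.66, 2.84 and 3.02 in sco3 and 2.76, 3.21 and 5.53 in Col-0 (log2 signal, replicates 1, 2 and 3). Every sco3phyb and phyb array was above every other array, and 1 Col-0 array stood apart from its pair. The difference was 4.60 ± 0.52 between sco3phyb and sco3 and 4.61 ± 0.52 between phyb and Col-0 (moderated standard error, n = 3 arrays per genotype), or 24.3-fold and 24.4-fold.

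AT3G48970 followed with 8.47, 8.29 and 8.40 in sco3phyb and 9.03, 8.64 and 8.57 in phyb, against 4.997, 4.09 and 4.26 in sco3 and 5.13, 4.80 and 4.53 in Col-0. Its sco3phyb arrays were all below its phyb arrays, while the sco3 and Col-0 arrays overlapped. The differences were 3.94 ± 0.22 between sco3phyb and sco3 and 3.92 ± 0.22 between phyb and Col-0. AT3G44450 read 7.86, 8.05 and 8.00 in sco3phyb and 7.88, 7.56 and 7.73 in phyb, against 4.77, 3.95 and 4.46 in sco3 and 4.10, 3.37 and 3.32 in Col-0. Here the overlap was within each phyb state, and the difference was smaller in the sco3 background (3.58 ± 0.22) than with SCO3 intact (4.13 ± 0.22). The change between backgrounds was not called in limma's fit (adjusted p = 0.377).

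AT2G43620 read 6.69, 7.06 and 6.59 in sco3phyb and 7.26, 7.23 and 5.77 in phyb, against 3.28, 3.11 and 3.28 in sco3 and 3.42, 2.42 and 3.45 in Col-0. One phyb array was lower than its pair, still far above every sco3 and Col-0 array. AT5G01790 gave 6.46, 6.52 and 6.55 in sco3phyb and 6.94, 6.95 and 7.11 in phyb, against 2.94, 2.44 and 3.01 in sco3 and 3.60, 3.51 and 3.48 in Col-0. Its 4 genotypes did not overlap at all: each sco3-bearing genotype lay below its partner with SCO3 intact.

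AT5G62360 read 6.29, 7.35 and 7.43 in sco3phyb and 6.83, 7.15 and 7.51 in phyb, against 3.51, 3.79 and 3.79 in sco3 and 3.91, 3.43 and 3.91 in Col-0. The sco3phyb and phyb arrays were mixed in order, as were those of sco3 and Col-0. AT2G27420 read 7.46, 7.04 and 7.02 in sco3phyb and 7.20, 6.65 and 6.55 in phyb, against 4.37, 3.72 and 4.09 in sco3 and 3.14, 2.76 and 2.14 in Col-0. It was the reverse of AT5G01790 where PHYB was intact, since every sco3 array was above every Col-0 array. Its phyb difference was accordingly smaller in the sco3 background, at 3.11 ± 0.25, than with SCO3 intact, at 4.12 ± 0.25. The change between backgrounds was not called in limma's fit (adjusted p = 0.137). Its Col-0 arrays read around the lower quartile of their signals (2.68 to 2.71), where a signal is dim.

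AT4G34950 read 7.19, 7.71 and 7.78 in sco3phyb and 7.01, 6.53 and 7.27 in phyb, against 3.06, 3.80 and 3.71 in sco3 and 4.07, 4.38 and 3.18 in Col-0. Its phyb difference was larger in the sco3 background, at 4.04 ± 0.30, than with SCO3 intact, at 3.06 ± 0.30. The change between backgrounds was not called in limma's fit (adjusted p = 0.228). AT1G56300 read 6.99, 7.64 and 7.87 in sco3phyb and 6.77, 7.35 and 7.65 in phyb, against 3.58, 4.10 and 4.99 in sco3 and 4.29, 3.59 and 4.92 in Col-0. The third replicate was its highest array in every genotype. AT1G49570 read 5.94, 5.71 and 5.45 in sco3phyb and 6.25, 6.15 and 6.47 in phyb, against 2.72, 2.88 and 2.61 in sco3 and 2.91, 2.64 and 2.71 in Col-0. It was lower in every sco3phyb array than in any phyb array, while sco3 and Col-0 overlapped.

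The other 47 loci that were higher in phyb had a smaller phyb difference of 1.51 to 2.71. AT3G45160, AT3G09440, AT4G16146, AT5G44400, AT3G46490, AT2G21130, AT5G40590, AT5G07030, AT3G09540, AT5G63180 and AT5G17160 were at 2.02 or more in both backgrounds. AT3G09440, one of these, had means of 9.20 ± 0.09 in sco3phyb and 9.46 ± 0.10 in phyb, against 6.50 ± 0.10 in sco3 and 6.49 ± 0.26 in Col-0 (SD, n = 3 each). A further 11 loci lay at 1.76 to 1.99. They were AT1G53035, AT1G01390, AT1G14960, AT3G21950, AT5G66590, AT1G07050, AT1G13930, AT3G42800, AT2G23910, AT5G62350 and AT4G22212. The remaining 25, at 1.51 to 1.75, were AT2G20560, AT3G14200, AT5G39410, AT1G75900, AT1G31710, AT5G19240, AT2G38465, AT2G44940, AT1G75280, AT1G64710, AT3G55760, AT3G03770, AT3G23170, AT5G55960, AT1G72140, AT5G61660, AT1G80280, AT1G27030, AT3G49220, AT1G14120, AT4G02630, AT3G15460, AT5G59680, AT1G78060 and AT1G70985.

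Of the 15 loci lower in phyb, AT5G01740 ranked first. It read 7.22, 7.41 and 7.57 in sco3phyb and 7.57, 6.99 and 6.65 in phyb, against 10.21, 9.96 and 10.15 in sco3 and 10.23, 9.89 and 10.04 in Col-0. The sco3 and Col-0 arrays were intermixed and far above the rest. The difference was -2.71 ± 0.19 between sco3phyb and sco3 and -2.98 ± 0.19 between phyb and Col-0, or 6.52-fold and 7.92-fold lower. AT3G56360 read 6.54, 6.61 and 6.18 in sco3phyb and 7.11, 6.95 and 7.05 in phyb, against 8.68, 8.84 and 9.02 in sco3 and 9.27, 9.40 and 9.29 in Col-0. Its 4 genotypes did not overlap, and the sco3-bearing genotype was the lower of each pair.

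AT5G02440 read 4.27, 3.85 and 4.24 in sco3phyb and 4.27, 4.71 and 4.15 in phyb, against 6.80, 6.57 and 6.55 in sco3 and 6.71, 6.83 and 6.02 in Col-0. Both pairs that differ only in SCO3 overlapped. AT1G19540 read 4.39, 4.44 and 4.67 in sco3phyb and 4.11, 4.38 and 4.41 in phyb, against 6.92, 7.44 and 7.85 in sco3 and 5.96, 6.22 and 7.01 in Col-0. Its phyb difference was -2.90 ± 0.26 in the sco3 background and -2.10 ± 0.26 with SCO3 intact.

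The pseudogene AT1G43590 read 2.49, 2.24 and 2.16 in sco3phyb and 2.49, 2.28 and 2.15 in phyb, against 4.59, 3.48 and 4.60 in sco3 and 5.27, 5.18 and 4.91 in Col-0. All 6 sco3phyb and phyb arrays read it below the lower quartile of the signals on that array, the range in which a signal is dim. AT1G66760 read 4.34, 4.46 and 4.75 in sco3phyb and 3.58, 4.21 and 3.89 in phyb, against 6.26, 6.63 and 6.27 in sco3 and 6.51, 6.17 and 5.74 in Col-0. Its sco3phyb arrays were all above its phyb arrays. AT1G50040 read 3.55, 3.39 and 3.34 in sco3phyb and 3.37, 3.03 and 3.26 in phyb, against 5.22, 5.39 and 5.16 in sco3 and 5.05, 5.16 and 4.99 in Col-0, and its phyb differences of -1.83 ± 0.12 and -1.84 ± 0.12 in the sco3 and SCO3 backgrounds had the smallest standard error of the 72 members.

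AT1G69570 read 4.37, 4.16 and 4.51 in sco3phyb and 4.80, 4.37 and 3.75 in phyb, against 6.08, 6.06 and 6.02 in sco3 and 6.31, 6.24 and 5.97 in Col-0. AT1G25400 read 4.81, 5.22 and 4.68 in sco3phyb and 4.71, 4.67 and 4.49 in phyb, against 6.23, 6.71 and 6.71 in sco3 and 6.06, 6.45 and 6.67 in Col-0. For both loci the overlap was within each phyb state. AT2G43860, the other locus among the first 10, rests on 1 array and is described with the single arrays. The last 5 lower loci were AT5G37710, AT5G14120, AT4G25580, AT4G26400 and AT3G29240, with a smaller phyb difference of 1.52 to 1.65 in size.

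**Figure D2:**
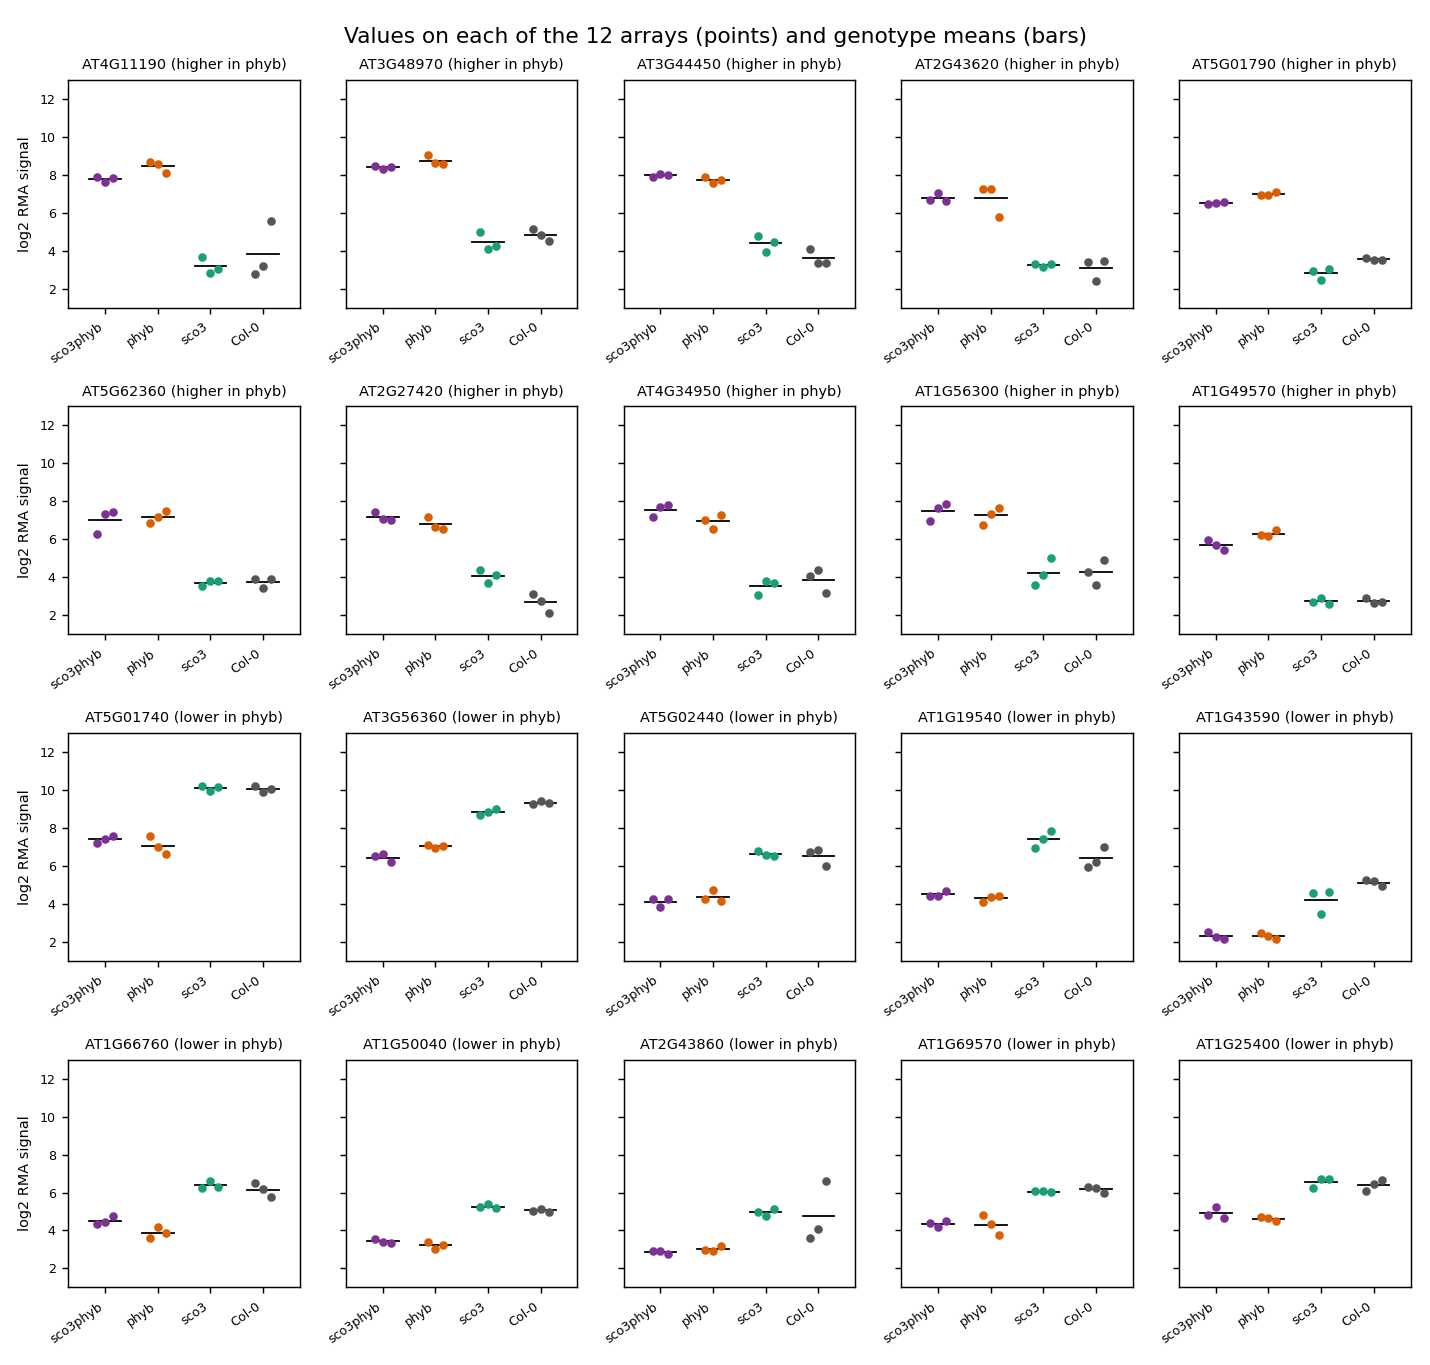
Log2 signal on each array (points) and genotype mean (bars) for the first 10 members higher and the first 10 lower in phyb, with genotypes from sco3phyb to Col-0 along the horizontal axis. In every panel the sco3phyb and phyb arrays are separated from the sco3 and Col-0 arrays, and 1 Col-0 array stands high for AT4G11190 (5.53) and AT2G43860 (6.58).

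**Figure D3:**
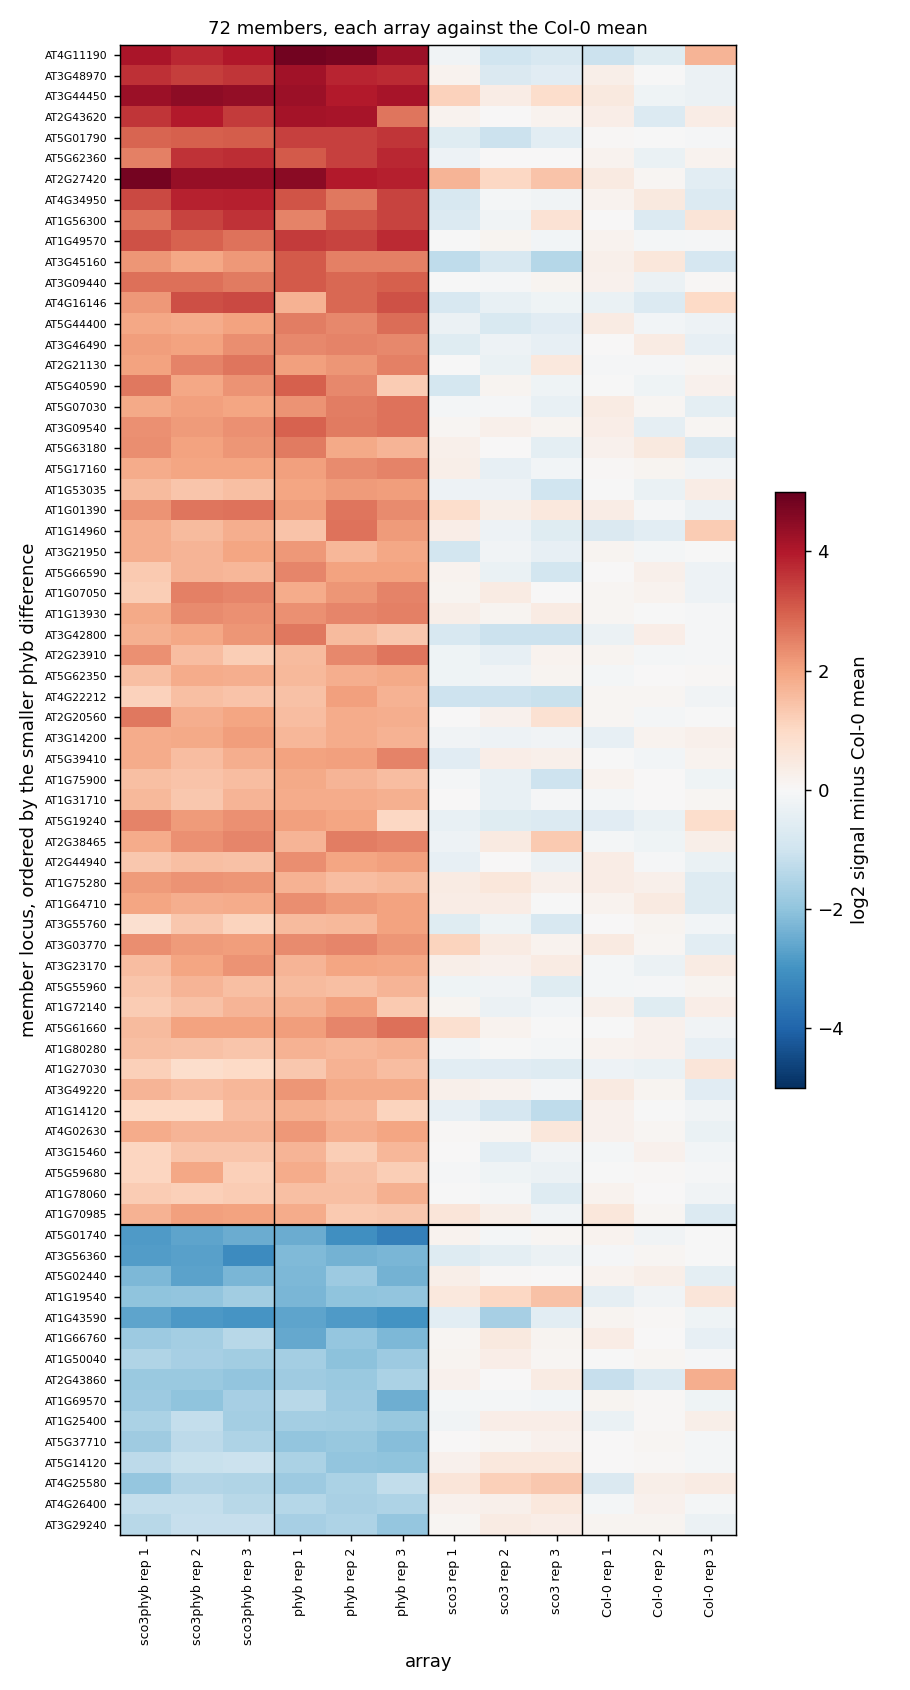
Log2 signal of each of the 72 members on each of the 12 arrays less its Col-0 mean, in red where above and blue where below, ordered by the smaller phyb difference within each direction. The 57 higher loci are red and the 15 lower loci blue on all sco3phyb and phyb arrays, while the sco3 and Col-0 arrays are paler, apart from single Col-0 arrays and from loci such as AT2G27420 (redder in sco3) and AT4G22212, AT3G42800 and AT3G45160 (bluer in sco3) whose 3 sco3 arrays are all shifted.

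The nearest loci on each side of the limits show how fine they are. Just inside the limit on the phyb difference were AT1G70985, AT1G78060 and AT5G59680, each with a smaller difference of 1.51. Just outside were AT2G44300 at 1.495, AT4G04940 at 1.48 and AT1G67860 at -1.47. Just inside the limit between sco3phyb and phyb were AT5G14120 at 0.69, AT2G44940 at -0.67 and AT4G11190 at -0.66. Just outside were AT5G26200 at -0.71, AT5G19890 at -0.72 and AT5G66420 at -0.73. Of 295 locus-form probe sets with a difference of at least 1.5 in size between phyb and Col-0, 192 fell short in the sco3 background, 31 passed there but differed too much between sco3phyb and phyb, and 72 were members. Among the other 223, the median difference between sco3phyb and sco3 was 1.03 for the 125 higher and -0.92 for the 98 lower ones, a gap that the rule itself makes. Outside the locus-form names, 17 probe sets with another gene symbol, 1 with several genes and 100 without a name were within the same limits.

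The size of the phyb difference in the sco3 background was compared with that where SCO3 was intact. It ranged from 64.3% to 172% of it, with a median of 96.1%, and was larger for 30 members and smaller for 42. The difference of the differences, the interaction, ranged from -1.12 for AT4G25580 to 1.16 for AT5G19240. In limma's fit 0 of 72 members were called for it after Benjamini-Hochberg adjustment, against 5.03% of all probe sets, and 12 had an unadjusted p under 0.05, against 19.4%. All 4 means that make up the interaction also enter the rule, which limits it in part. The rule bounds the difference between sco3phyb and phyb, and sets only a least size for each phyb difference. The count is therefore no evidence of independence from SCO3.

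How far each interaction could reach is seen from its 95% interval. The median half-width was 0.63 on the log2 scale. For 38 members the interval lay wholly within 1 log2 unit (2-fold) of 0, and for 34 it reached past it. For only 3 did it lie within 0.5 (1.41-fold). The name of the set as independent of SCO3 thus holds in the sense of the rule, and for 34 loci the data leave room for a difference of more than 2-fold between the backgrounds.

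The members with the largest interactions were picked after their values were seen. AT5G19240 read 7.84, 7.48 and 7.66 in sco3phyb and 7.41, 7.36 and 6.41 in phyb, against 4.98, 4.76 and 4.69 in sco3 and 4.82, 5.03 and 6.26 in Col-0. One low phyb array and 1 high Col-0 array, both replicate 3, narrowed the gap where SCO3 was intact. AT3G42800 read 6.16, 6.31 and 6.58 in sco3phyb and 7.01, 5.98 and 5.72 in phyb, against 3.59, 3.33 and 3.33 in sco3 and 4.09, 4.73 and 4.33 in Col-0. All its sco3 arrays were below its Col-0 arrays. AT4G25580 read 3.36, 3.81 and 3.80 in sco3phyb and 3.46, 3.70 and 4.04 in phyb, against 5.89, 6.46 and 6.65 in sco3 and 4.58, 5.57 and 5.72 in Col-0. Its sco3 arrays were all above its Col-0 arrays, and the phyb difference was -2.68 ± 0.28 in the sco3 background and -1.56 ± 0.28 with SCO3 intact.

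**Figure D4:**
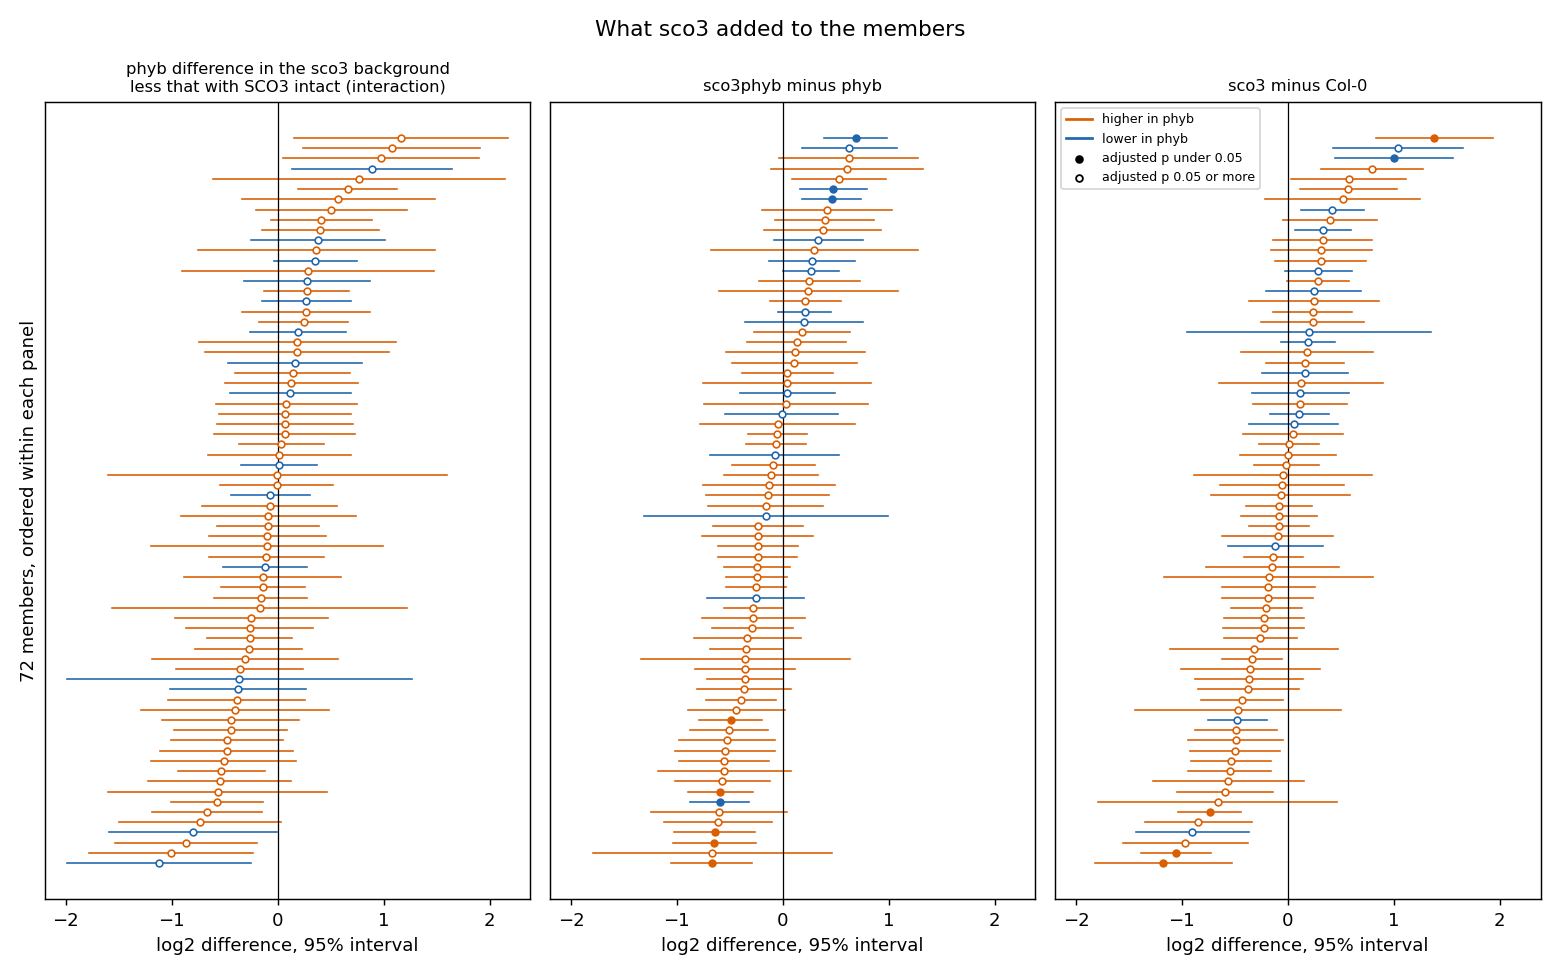
Log2 differences (points) with 95% intervals from limma's fit for the 72 members, ordered within each panel, for the interaction, sco3phyb minus phyb, and sco3 minus Col-0. No point is filled for the interaction (0 called), 9 are for sco3phyb minus phyb and 5 for sco3 minus Col-0.

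Where PHYB was intact, 5 of the 72 members were called between sco3 and Col-0 (2 higher and 3 lower), against 4.97% of all probe sets (2.81% higher and 2.16% lower). Their share is near that background, and both means also enter the rule. AT4G22212 read 6.75, 6.76 and 6.68 in sco3, against 7.89, 7.88 and 7.60 in Col-0, with no overlap. Its difference was -1.06 ± 0.15 (adjusted p = 0.00319), and it was called under all 19 alternatives (adjusted p from 0.00152 to 0.0252). Leaving out a phyb or sco3phyb array leaves this difference as it was, so these are not 19 separate checks. In the other genotypes AT4G22212 read 8.96, 9.30 and 9.20 in sco3phyb and 9.24, 9.85 and 9.54 in phyb. Its phyb difference was thus 2.42 ± 0.15 in the sco3 background and 1.76 ± 0.15 with SCO3 intact.

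AT2G27420 was higher in sco3 by 1.38 ± 0.25 (adjusted p = 0.011) and AT5G01790 lower, at -0.74 ± 0.14 (adjusted p = 0.0123). Both lost the call only in a fit of sco3 and Col-0 arrays without the others (0.0765 and 0.116). AT3G45160, at -1.17 ± 0.30 (adjusted p = 0.0419), and AT1G19540, at 1.004 ± 0.26 (adjusted p = 0.0445), each lost it under 11 of the 19 alternatives, with adjusted p up to 0.178 and 0.193. AT3G45160 read 3.15, 3.60 and 2.97 in sco3, against 4.67, 4.99 and 3.59 in Col-0, so the lowest Col-0 array lay just below the highest sco3 array. The ranges of sco3 and Col-0 did not overlap for 18 members, 6 higher and 12 lower, against 23.3% of all probe sets (13% higher and 10.3% lower).

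Between sco3phyb and phyb, which the rule kept under 0.7, 9 members were called, 3 higher and 6 lower, against 14.9% of all probe sets (7.76% higher and 7.18% lower). Nothing is read from this count. The root hair gene EXPA7 fell in the same comparison (-1.22 ± 0.37, adjusted p = 0.0427). Between sco3 and Col-0 it differed by -1.29 ± 0.37, without being called (adjusted p = 0.065). There EXPA7 read 5.22, 5.60 and 4.36 in sco3, against 5.81, 5.85 and 7.38 in Col-0, so replicate 3 of each widened the gap. The part of root hairs in the members' values was not tested. The 6 lower in sco3phyb were AT2G44940 (-0.67), AT3G55760 (-0.65), AT5G44400 (-0.64), AT3G56360 (-0.60), AT1G49570 (-0.59) and AT5G01790 (-0.49), all but AT3G56360 from the loci higher in phyb. The 3 higher in sco3phyb were AT5G14120 (0.69), AT3G29240 (0.48) and AT5G37710 (0.46), all from the loci lower in phyb. Of the 9, AT3G56360 and AT5G14120 were called under all 19 alternatives. The other 7 lost the call in at least 1 fit without an array, AT3G29240 under 8 and AT5G01790 under 6 of the 19. Leaving out a Col-0 or sco3 array leaves this difference as it was, so the alternatives are not 19 separate checks. Since the rule bounds the difference, these calls are a description. AT5G14120 read 8.83, 9.04 and 9.08 in sco3phyb, against 8.57, 8.16 and 8.14 in phyb, without overlap. It read 10.36, 10.65 and 10.66 in sco3, against 10.17, 10.18 and 10.06 in Col-0, again without overlap. The sco3phyb and phyb ranges did not overlap for 32 members, 8 higher and 24 lower, against 38.7% of all probe sets (21.5% higher and 17.2% lower).

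The small differences that came with sco3 leaned against the phyb difference. Of the 57 loci higher in phyb, 40 were lower in sco3phyb than in phyb, with a median of -0.24, and 37 were lower in sco3 than in Col-0, with a median of -0.14. Of the 15 loci lower in phyb, 10 were higher in sco3phyb than in phyb (median 0.21) and 12 were higher in sco3 than in Col-0 (median 0.19). Over all probe sets these medians were 0.04 and 0.02. Among the other locus-form probe sets changed in phyb, the medians between sco3phyb and phyb were -0.99 for the 125 higher and 0.90 for the 98 lower ones. Between sco3 and Col-0 they were 0.06 and -0.07. The rule bounds the difference between sco3phyb and phyb for the members only. For 38 of the 72 members both sco3 differences were opposite to the phyb difference, and for 11 both were with it. After centring, 1 member turned sign between sco3phyb and phyb and 2 between sco3 and Col-0, and after the further quantile normalization 0 and 0. Each of these differences shares a mean with a phyb difference that chose the members, and the lean was not tested.

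Several memberships depended on 1 array. Leaving out each array in turn gave 68 to 75 members, of which 61 to 69 were among the 72, and 41 of the 72 were kept whichever array was left out. AT2G43860 read 2.91, 2.90 and 2.78 in sco3phyb and 2.99, 2.89 and 3.19 in phyb, against 4.95, 4.77 and 5.15 in sco3 and 3.62, 4.07 and 6.58 in Col-0. Without the high Col-0 array, replicate 3, its difference between phyb and Col-0 was -0.82 in place of -1.73, and it left the set. In the sco3 background, where its replicates were close, the difference was -2.09 ± 0.53. AT4G11190 also had its highest Col-0 value, 5.53, on that array, but left the set only without phyb replicate 3 or sco3phyb replicate 1, when sco3phyb and phyb differed by -0.83 or -0.73. Col-0 replicate 3 deviated most from its genotype mean over the members, by 0.356 on average, against 0.134 to 0.243 on the other 11 arrays. Over all probe sets it was also the array that deviated most, by 0.214.

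The annotation gave a second probe set to 1 member locus, AT1G31710. The member probe set read 8.52, 8.26 and 8.63 in sco3phyb and 8.77, 8.76 and 8.71 in phyb, against 6.93, 6.53 and 6.87 in sco3 and 6.80, 6.93 and 7.01 in Col-0. The second probe set read 3.41, 3.18 and 3.28 in sco3phyb and 3.03, 3.23 and 2.97 in phyb, against 2.93, 3.15 and 3.46 in sco3 and 3.49, 3.16 and 2.85 in Col-0. All its genotypes overlapped, and its phyb differences were 0.11 ± 0.17 in the sco3 background and -0.09 ± 0.17 with SCO3 intact. The second probe set thus did not repeat the difference. It read not far above the lower quartile of the signals (2.62 to 2.77), so it cannot settle whether the locus changed. Apart from AT1G43590, signals below the lower quartile on all 3 arrays of a genotype occurred for AT5G40590 in sco3 and Col-0 and for AT1G07050 in Col-0.

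**Figure D5:**
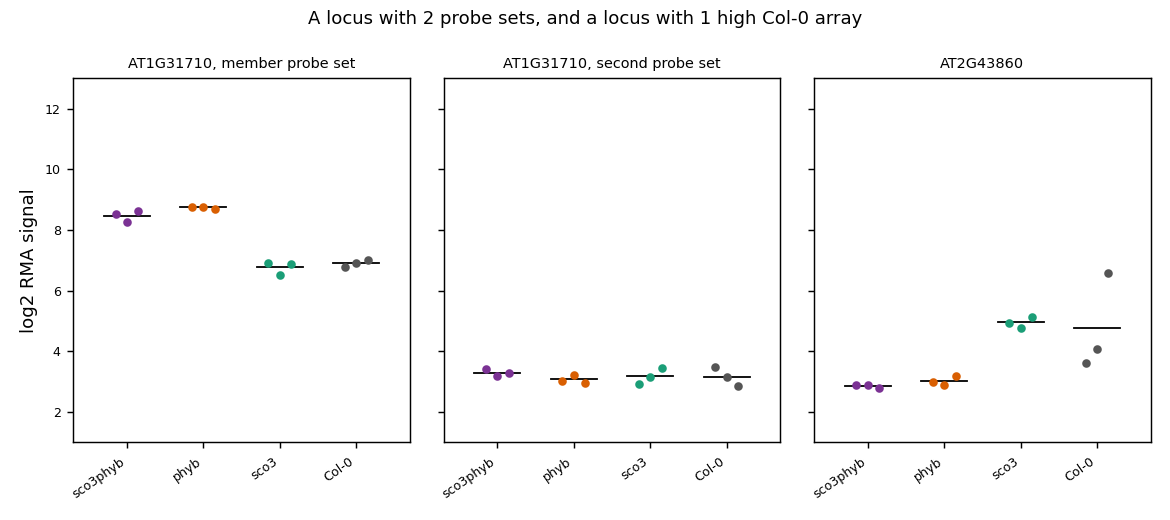
Log2 signal on each array (points) with genotype means (bars) for both probe sets of AT1G31710 and for AT2G43860. The member probe set of AT1G31710 lies between 8.26 and 8.77 in the sco3phyb and phyb arrays, its second probe set lies between 2.85 and 3.49 on all 12 arrays, and for AT2G43860 1 Col-0 array reads 6.58.

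Some members had the same replicate number as their highest or lowest array in every genotype. The same number was highest in all 4 genotypes for 7 members, against 3.84% of all probe sets. It was replicate 1 for AT3G48970, AT2G27420 and AT3G49220, and replicate 3 for AT1G56300, AT4G16146, AT2G21130 and AT1G19540. The same number was lowest in all 4 genotypes for 4 members, against 3.65% of all probe sets: replicate 1 for AT5G62350, AT4G25580 and AT1G19540, and replicate 3 for AT3G03770. AT1G19540 alone was on both lists. AT4G16146 read 5.70, 6.74 and 6.84 in sco3phyb and 5.26, 6.41 and 6.72 in phyb, against 2.72, 3.14 and 3.31 in sco3 and 3.20, 2.86 and 4.52 in Col-0. What the arrays of a number have in common is not given in the labels.

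Along the genome the members were spread over all 5 nuclear chromosomes. Of the loci measured on each, 23 of 3428 on chromosome 1, 8 of 2178 on chromosome 2, 16 of 2730 on chromosome 3, 7 of 1937 on chromosome 4 and 18 of 2991 on chromosome 5 were members, or 0.543% in all. Among the 600 measured loci nearest to PHYB on chromosome 2, 3 were members (AT2G20560, AT2G21130 and AT2G23910). Among the 600 nearest to SCO3 on chromosome 3, of which 157 lay in the stretch that was left out, 4 were (AT3G14200, AT3G15460, AT3G21950 and AT3G23170). AT5G62350 and AT5G62360 were the only members next to each other. AT5G62350 read 10.94, 11.27 and 11.26 in sco3phyb and 11.07, 11.23 and 11.33 in phyb, against 9.22, 9.25 and 9.55 in sco3 and 9.33, 9.47 and 9.49 in Col-0. Its phyb differences were 1.82 ± 0.13 in the sco3 background and 1.78 ± 0.13 with SCO3 intact, smaller than those of its neighbour (3.32 ± 0.27 and 3.41 ± 0.27). Of 67 measured direct neighbours of members, the 2 of this pair were the ones past the limit in both backgrounds in the member's direction, or 2.99%. Each is the neighbour of the other, so this is 1 pair counted from both sides. Of all measured nuclear loci, 0.927% were past the limit in both backgrounds, 0.694% higher and 0.234% lower. The median length of the members' genes from start to end was 1978 bases, against 2107 bases over the measured nuclear loci.

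Genes of the phytochrome pathway with a known role were followed beside the members, and none of those that the annotation names was within the limits. Of 13 shade-induced genes 4 could be found by name in the annotation. Relative to sco3, 2 rose in sco3phyb, and relative to Col-0, 3 rose in phyb. IAA29, an auxin-induced repressor that the shade response switches on, rose by 2.34 ± 0.31 in sco3phyb relative to sco3 and by 2.17 ± 0.31 in phyb relative to Col-0 (adjusted p = 0.00012 and 0.000157). It differed by -0.90 between sco3phyb and phyb, beyond the limit of 0.7, and it also has a gene symbol in place of a locus name. HAT2, a homeodomain transcription factor of the same response, rose by 1.73 ± 0.20 and 1.38 ± 0.20 in those comparisons (adjusted p = 4.22e-05 and 0.000171).

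Of 27 light signalling genes 3 could be found by name, with 1 higher in sco3phyb relative to sco3 and 2 higher in phyb relative to Col-0. GI, a regulator of the circadian clock and flowering, rose by 1.53 ± 0.29 and 1.05 ± 0.29 (adjusted p = 0.00173 and 0.0143). FHL, which carries phytochrome A into the nucleus, was at -0.42 in sco3phyb relative to sco3 and rose by 0.95 ± 0.23 in phyb relative to Col-0, and its interaction was called (-1.36 ± 0.33, adjusted p = 0.0315). Of 11 early auxin genes 3 could be found, and 3 rose in sco3phyb relative to sco3 and 2 in phyb relative to Col-0. The lists overlap: IAA29 is counted among both the shade-induced and the early auxin genes. FHL is counted among both the light signalling and the shade-induced genes. GH3.3, which conjugates auxin to amino acids, rose by 0.56 ± 0.19 and 1.16 ± 0.19 (adjusted p = 0.0452 and 0.000537).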

How the data were processed

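The authors deposited log2 expression values per probe set for 12 arrays; per the submitters' processing notes the tools were Partek and RMA, with version not given in the sources used here, and settings likewise. These log2 values were used as deposited. Of 22810 probe sets, 64 controls were left out. The platform annotation gave 1 gene to 13513, several to 503 and none to 8730. Groups and replicates were taken from the titles.

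Limma 3.58.1 in R 4.3.3 was fitted to all 22746 probe sets (lmFit and eBayes, a mean per genotype, 1 pooled spread), two-sided, with Benjamini-Hochberg adjustment within each contrast. Errors beside differences are moderated standard errors of this fit. P-values measure the spread between labelled biological replicates. The scripts were tested on simulated data.

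The members, gene lists and tests were chosen with earlier results of these data known. Named members were the first 10 in each direction by the smaller phyb difference, those called between sco3 and Col-0 (up to 3 a direction) and the 3 nearest each limit; the members called between sco3phyb and phyb, those with the largest interactions and other single cases were named after their values were seen. Chromosomes, neighbours, lengths and gene types came from RefSeq's TAIR10.1 table, in which all 72 loci were found. Promoter motifs were planned and not run, since no sequence was used here.

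Over all probe sets, the residual correlations of arrays of the same replicate number ranged from -0.27 to 0.15, with 3 of 18 pairs over 0.1. For arrays of different numbers they ranged from -0.20 to 0.31, with 7 of 36 pairs over 0.1. Such correlations were not computed over the members alone, so a shared deviation there was not tested.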

Additional observations from a re-analysis of the deposited data

How the results depend on the processing

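Centring each array kept 53 of the 72 members and gave 68, and a further quantile normalization kept 60 and gave 65. A phyb difference of at least 1.0 gave 241 loci and of at least 2.0 gave 25, while a limit between sco3phyb and phyb of 0.5 or 1.0 gave 53 or 86, and leaving out the dimmest 40% of probe sets kept 69. Without 1 array each, the number was 68 to 75. Between sco3 and Col-0, 5 members were called and 1130 over all probe sets, and the member count was 10 with the dimmest 40% left out (1320 over all), 10 with a mean and variance trend and robust fitting (1236), and 1 with only the sco3 and Col-0 arrays (117). It was 3 to 8 without 1 array, and 8 without Col-0 replicate 3 (859 over all). The lowest count, 3, came without sco3 replicate 3 (396), phyb replicate 2 (844) or 3 (789), or sco3phyb replicate 1 (947) or 2 (763). The interaction, with 0 called and 1143 over all probe sets, gave 5 with array weights (1957 over all) and 0 to 3 without 1 array, 3 being without Col-0 replicate 3 (1582). Between sco3phyb and phyb, 9 were called and 3398 over all probe sets, against 27 with array weights (6505 over all) and 20 with only the sco3phyb and phyb arrays (5018). That count was 2 to 17 without 1 array, and 17 without Col-0 replicate 3 (4877 over all). It was 2 without phyb replicate 3 (2261) or sco3phyb replicate 3 (2243), and 4 without sco3phyb replicate 1 (2503) or 2 (2351). The labels do not say what arrays of a replicate number share. With the number as a replicate block, 7 members were called between sco3 and Col-0 (888 over all) and 2 in the interaction (1040). Between sco3phyb and phyb, 9 were called with that block (3204). Fewer arrays or genotypes in a fit leave fewer degrees of freedom; beyond that the cause was not tested. The planned search for promoter motifs was not run. Dim signals limit AT5G40590, AT1G07050 and AT1G43590, below the lower quartile on all 3 arrays of a genotype. They also limit other members that read near it, such as AT1G49570 in sco3 and Col-0 and AT2G27420 in Col-0.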
